A study of Mus musculus with 9 samples.

Results

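The 8 genes described here encode amino acid transporters of the cell surface: Slc6a19, Slc7a5, Slc3a2, Slc1a5, Slc38a1, Slc38a2, Slc7a6 and Slc43a1. They were chosen by symbol from a table of 24060 genes, and all 8 exceeded 1 TPM in at least 1 sample, as did 12115 genes in all. TPM is a gene's share of a library's transcripts after correction for gene length, scaled so that every library has the same sum. Slc6a19 was picked because it differed between the clones of this study. Slc6a19 and Slc43a1 both stand in the study's own list of genes that differ between clones. The values of both are therefore given as a description, without a test. The other 6 are transporters that T cells are known to use and were tested.

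CD8 T cells take up amino acids through a small set of carriers with overlapping substrates. A heavy chain, Slc3a2 (CD98), brings light chains such as Slc7a5 (LAT1) and Slc7a6 to the surface, where they exchange large neutral or cationic amino acids. Slc1a5 (ASCT2), Slc38a1 and Slc38a2 (SNAT1 and SNAT2) are sodium-dependent carriers of small neutral amino acids and glutamine, and Slc43a1 (LAT3) lets branched-chain and other large neutral amino acids pass along their gradient. Slc6a19 (B0AT1) is best known from the brush border of the small intestine and kidney tubule, where it drives the sodium-dependent uptake of neutral amino acids and depends in the kidney on collectrin (Tmem27) to reach the membrane. Uptake of leucine and glutamine feeds the growth regulator mTORC1, and a shortage of amino acids raises the transcription factor ATF4.

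The data are RNA-seq values of CD8 T cells from the transnuclear mouse strains Rop7-I, Rop7-II and Rop7-III, with 3 biological replicates each and 9 samples in all. Every strain was derived by transfer of the nucleus of 1 CD8 T cell and carries the rearranged T-cell receptor (TCR) genes of that cell. The receptors of all 3 strains recognise the same Rop7 peptide of Toxoplasma on H-2Ld, but secondary rearrangement leaves some T cells of these mice without tetramer binding, and the sort removed such cells. Each strain is thus 1 clone, and the TCR and any other feature of that line cannot be told apart. Mice had been backcrossed onto BALB/c over several generations, the study calls the sequenced cells homozygous, no antigen was given, and age is not given in the sources used here. Spleen cells of every group spent a night in culture with IL-2 (10 ng/ml), after which cells positive for CD3, CD8 and the H-2Ld-Rop7 tetramer were sorted to a purity of 90 to 95%, and 200 ng of RNA entered each library.

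The labelled cell type was present in all samples: 8 T-cell and CD8 markers summed to between 7594 and 8426 TPM, and Cd4 was at most 6.75 TPM. Of the 8, 1 was higher and 2 lower in Rop7-III against Rop7-II by limma at an adjusted p under 0.01. Of all tested genes, 6.39% and 5.89% were. The counts were the same in Rop7-I against Rop7-II, beside 3.67% and 3.85%, and 0 in Rop7-III against Rop7-I. Cd2 was at 364 to 368 TPM in Rop7-III and 242 to 258 TPM in Rop7-II, and Cd8a at 606 to 637 and 785 to 839 TPM. The Rop7-II replicate 1 library stood apart. It held the highest value of all 15 B-cell markers, whose sum was 1847 TPM against 119 to 783 TPM elsewhere, and of all 13 myeloid markers, whose sum was 849 TPM against 145 to 356 TPM elsewhere. The other libraries differed by clone as well. B-cell sums were 309 to 783 TPM in Rop7-I, 119 to 239 TPM in Rop7-III, and 152 and 197 TPM in Rop7-II replicates 2 and 3. The myeloid sums of these 2 Rop7-II libraries were 176 and 356 TPM, against 159 to 242 TPM in Rop7-I and 145 to 181 TPM in Rop7-III. The part of such cells in the differences between clones was not tested. Summed erythroid markers ranged from 28.1 to 2491 TPM and were highest in Rop7-I replicate 2, NK-cell markers from 9.28 to 40.5 TPM, and markers of CD4 T cells from 23.5 to 47.6 TPM. Single genes weighed heavily in some sums: Ctla4 gave 18.7 to 34.9 TPM of the CD4 T-cell sums, and Cst3 96.0 to 158 TPM of the myeloid sums.

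Slc6a19 had its highest level in Rop7-II, and of the members it differed most from Rop7-II in both other clones, while Slc43a1 differed more between Rop7-III and Rop7-I. The TPM were 396, 349 and 403 in the 3 Rop7-II samples, 74.5, 64.7 and 88.6 in Rop7-I, and 32.6, 24.3 and 31.2 in Rop7-III. Every Rop7-II sample lay above every Rop7-I sample, and every Rop7-I sample above every Rop7-III sample. The mean level was 383 ± 29.1 TPM for Rop7-II, 75.9 ± 12.0 TPM for Rop7-I and 29.4 ± 4.48 TPM for Rop7-III (SD, n = 3). These means stood 13.0 to 1 for Rop7-II over Rop7-III, 5.04 to 1 for Rop7-II over Rop7-I, and 2.58 to 1 for Rop7-I over Rop7-III. Taken sample by sample, the ratio of Rop7-II to Rop7-III was between 10.7 and 16.6. In these bulk samples a smaller share of expressing cells and less RNA per cell cannot be told apart.

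Among the 12115 tested genes, ordered by level, Slc6a19 ranked between 333 and 395 in the Rop7-II samples, between 2188 and 3040 in Rop7-I, and between 5387 and 6373 in Rop7-III. On the log2(TPM + 1) scale the difference between Rop7-III and Rop7-II was -3.67, and it was -3.64 without the Rop7-II replicate 1 library. The Slc6a19 level of that library, 396 TPM, lay between those of the other Rop7-II samples.

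**Figure D1:**
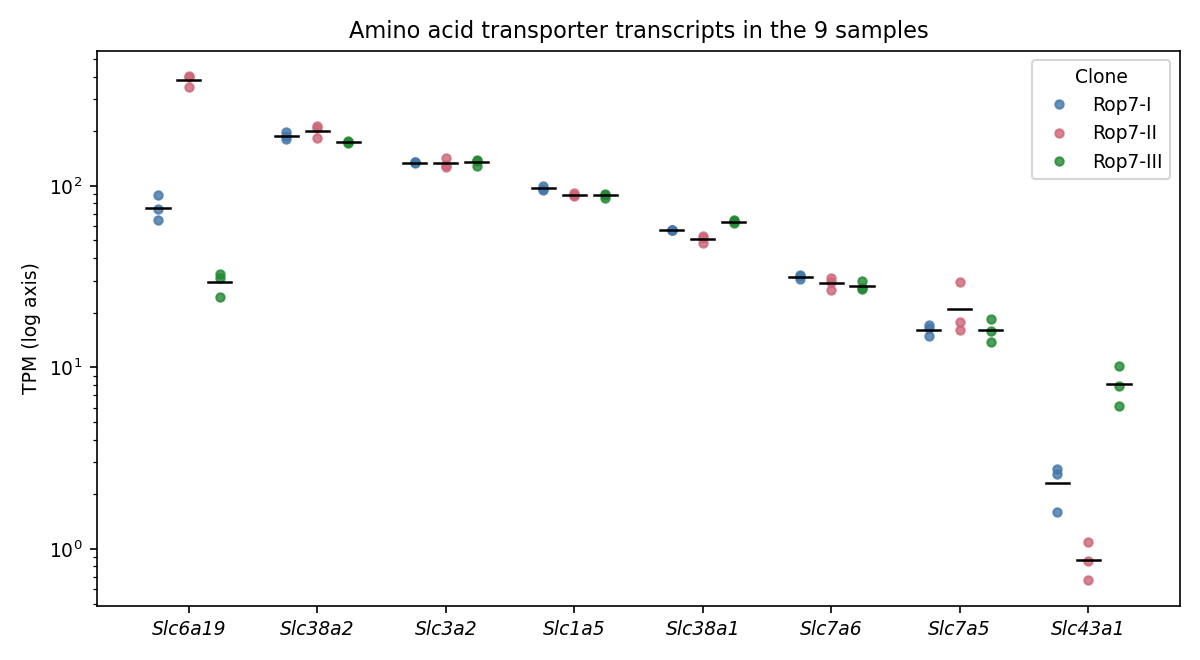
TPM (log axis) of the 8 transporters, with a point for each sample, coloured by clone, and a black line at the mean of each clone's 3 samples. The clones were separated over more than a 10-fold range for Slc6a19, 383 TPM in Rop7-II against 29.4 TPM in Rop7-III, and in the opposite order for Slc43a1, 0.873 TPM in Rop7-II against 8.06 TPM in Rop7-III, while the points of the other 6 genes lay close together.

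Slc6a19 lies on the minus strand of chr13:73679745-73700780 (GRCm38). GENCODE M21 gives a protein-coding transcript of 12 exons and 3936 bases that begins at the upper end of the gene, and a processed transcript of 11 exons and 3592 bases that begins within it, at position 73692636. The internal start is the one that RefSeq's promoter table (GRCm38.p6) holds. The 250 bases before it, chr13:73692637-73692886, lie in an intron of the protein-coding transcript and overlap no annotated exon. They are shown because Slc6a19 was the member picked for its clone difference:

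Slc6a19: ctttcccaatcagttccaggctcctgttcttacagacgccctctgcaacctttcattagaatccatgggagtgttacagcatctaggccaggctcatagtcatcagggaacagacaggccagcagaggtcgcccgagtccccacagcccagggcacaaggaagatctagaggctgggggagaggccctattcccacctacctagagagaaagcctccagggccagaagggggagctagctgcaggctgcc

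The window, printed 5′ to 3′ on the strand of the gene, has a GC content of 57.6% and no capitals, since neither motif searched was found in it on either strand. The motifs were the E-box CACGTG, bound by MYC among others, and TGATGNAA, the composite element of ATF4 and C/EBP factors. Of 32851 RefSeq promoter windows of the same length, 6.02% held the E-box and 3.45% the ATF4 element. Windows were found for 5 of the 8 members, 6 windows in all: those of Slc6a19, Slc43a1, Slc3a2, Slc38a2 and Slc7a6, but not Slc7a5, Slc1a5 or Slc38a1. The window of Slc43a1 held 1 E-box, and none of the 6 held the ATF4 element. The gene-level TPM do not separate the transcripts of Slc6a19, so the start used in these cells is not known from them.

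Slc6a19 made up a different share of the amino acid transporter transcripts in each clone. Over a list of 45 genes for cell-surface amino acid transporters, TPM summed to between 1080 and 1193 in the Rop7-II samples, between 799.9 and 842 in Rop7-I, and between 768 and 785 in Rop7-III. Slc6a19 was the highest gene of the list in each Rop7-II sample and held 32.3 to 34.1% of this sum. It was the fifth in Rop7-I, with 8.08 to 10.5%, and the seventh or eighth in Rop7-III, with 3.13 to 4.25%. Without Slc6a19 the sums were 769 ± 34.2 TPM for Rop7-II, 738 ± 14.2 TPM for Rop7-I and 746 ± 9.68 TPM for Rop7-III (SD, n = 3), and the samples of the 3 clones overlapped. Per length, Rop7-II samples held 1.84 to 1.95 Slc6a19 transcripts for each transcript of Slc38a2, the next member in level, against 0.356 to 0.446 in Rop7-I and 0.139 to 0.191 in Rop7-III.

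**Figure D2:**
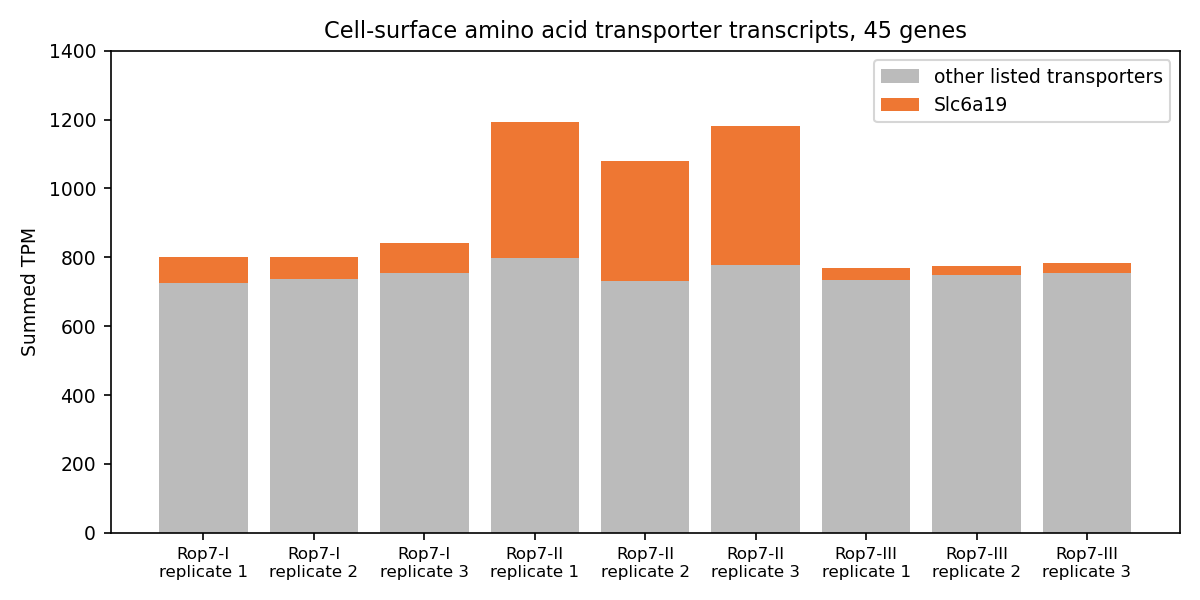
Summed TPM of 45 cell-surface amino acid transporter genes in each of the 9 samples, with Slc6a19 in orange and the other genes in grey. The grey parts were of like height in all samples, 725 to 797 TPM, while the orange part was between 349 and 403 TPM in the Rop7-II samples and at most 88.6 TPM in the others.

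Partners of Slc6a19 at the epithelial membrane were at or near 0 at the RNA level. Tmem27 was listed at 0 TPM in all 9 samples, and Anpep, an aminopeptidase that associates with the transporter in the gut, did not exceed 0.55 TPM. Of 12 epithelial markers, 2 (Epcam and Cdh1) exceeded 1 TPM in any sample. The sum of all 12 was 0.91 to 4.22 TPM, and Krt8, Krt19, Krt20, Fabp2, Lrp2 and Umod were listed at 0 throughout. The highest epithelial sum, 4.22 TPM, was in Rop7-II replicate 1, while Rop7-II replicate 3, which had the highest Slc6a19 level, had the lowest sum, 0.91 TPM.

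Around Slc6a19, its antisense RNA and a neighbouring ion transporter were also highest in Rop7-II. Slc6a19os, an antisense long noncoding RNA, was at 7.47, 6.49 and 5.56 TPM in Rop7-II, at 3.79, 1.76 and 2.10 TPM in Rop7-I, and at 2.00, 1.41 and 2.18 TPM in Rop7-III. Its span overlaps that of Slc6a19 by 826 bases in RefSeq, without a shared exonic base in GENCODE M21, and since the libraries did not keep strand the reads of both genes within the overlap cannot be told apart. It is given without a test for that reason. Slc12a7, a potassium-chloride cotransporter that lies beyond Slc6a19os, was at 1054 ± 57.8 TPM for Rop7-II, 724 ± 39.2 TPM for Rop7-I and 644 ± 36.1 TPM for Rop7-III. It was lower than in Rop7-II by limma in Rop7-III (log2 difference -0.71, adjusted p = 4.32e-05) and in Rop7-I (-0.54, adjusted p = 0.000312), while the log2 difference of Rop7-III against Rop7-I was -0.17 (adjusted p = 0.0780). Slc6a18, the closest gene on the other side and a kidney amino acid transporter of the same family, was at most 0.85 TPM and did not pass the filter.

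Apart from Slc6a19 and Slc6a19os, 19 tested genes lay within 1 Mb of Slc6a19. Of these, 3 were called between Rop7-III and Rop7-II (Slc12a7, Sdha and Zfp825), 1 between Rop7-III and Rop7-I (Erap1), and 2 between Rop7-I and Rop7-II (Slc12a7 and Erap1). Called here and below means an adjusted p under 0.01 by limma. Of all tested genes, 12.3%, 4.85% and 7.53% were called in these 3 comparisons, in that order.

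**Figure D3:**
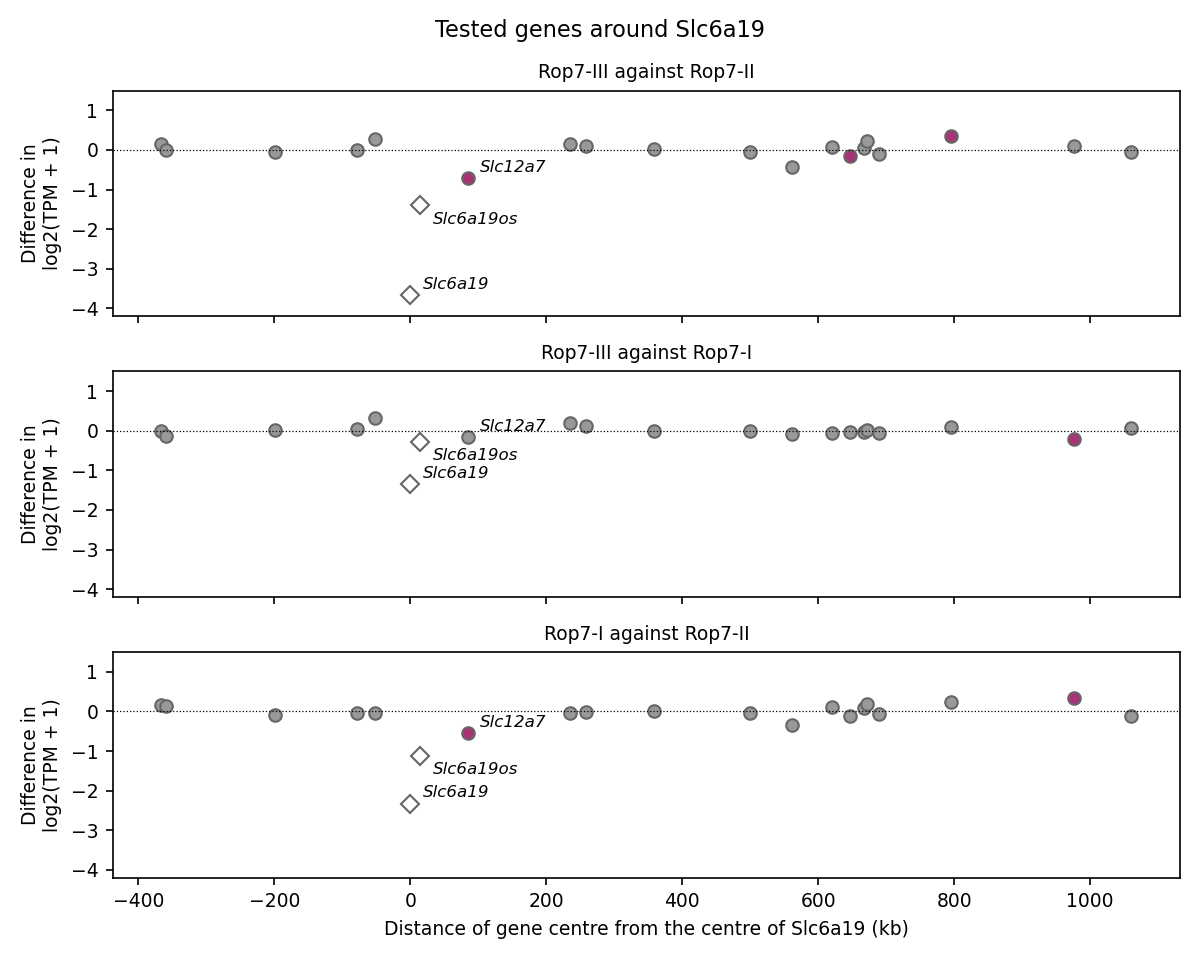
Difference in log2(TPM + 1) between clones (vertical axis) for the tested genes around Slc6a19, against the distance in kb between gene centres, with a panel for each comparison. Filled purple circles were called, grey circles were not, and open diamonds (Slc6a19 and Slc6a19os) are shown without a test. In the comparisons with Rop7-II, Slc12a7 was the called gene closest to Slc6a19. In Rop7-III against Rop7-I it was not called, and Erap1 was the only called gene.

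Slc43a1 had the opposite order of clones and a far lower level. The TPM were 10.2, 7.85 and 6.15 in the Rop7-III samples, 1.59, 2.57 and 2.75 in Rop7-I, and 1.09, 0.67 and 0.86 in Rop7-II. Here the Rop7-III samples lay above all others, and the Rop7-I samples above those of Rop7-II. Mean levels were 8.06 ± 2.03 TPM for Rop7-III, 2.30 ± 0.624 TPM for Rop7-I and 0.873 ± 0.210 TPM for Rop7-II (SD, n = 3), which is 9.23 to 1 for Rop7-III over Rop7-II. On the log2(TPM + 1) scale, which compresses low values, the differences were 2.26 for Rop7-III against Rop7-II, 1.45 for Rop7-III against Rop7-I and 0.81 for Rop7-I against Rop7-II. With 0.1 TPM added in place of 1, they were 3.06, 1.77 and 1.29. In RefSeq, Slc43a1 (plus strand, chr2:84838855-84863586) overlaps the long noncoding RNA D930003E18Rik by 1354 bases.

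Slc43a2 (LAT4), the closest relative of Slc43a1 in the list, was far more abundant. It stood at 100 ± 9.93 TPM for Rop7-I, 123 ± 4.75 TPM for Rop7-II and 124 ± 3.00 TPM for Rop7-III, and did not pass the limit in any comparison. Its log2 differences were 0.31 for Rop7-III against Rop7-I (adjusted p = 0.0154), -0.29 for Rop7-I against Rop7-II (adjusted p = 0.0150) and 0.016 for Rop7-III against Rop7-II (adjusted p = 0.877). Per length, the samples held 108 to 187 Slc43a2 transcripts for each of Slc43a1 in Rop7-II, 38.1 to 55.9 in Rop7-I and 12.3 to 20.5 in Rop7-III.

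The log2 differences of the 6 tested members ran from -0.34 to 0.32. Of the 6, 1 was called between Rop7-III and Rop7-II (Slc38a1, higher in Rop7-III), and none between Rop7-III and Rop7-I or between Rop7-I and Rop7-II, at an adjusted p under 0.01 by limma, beside 12.3%, 4.85% and 7.53% of all tested genes. At an unadjusted p under 0.05 the counts were 2, 3 and 2 of 6, beside 37.8%, 28.0% and 32.1% of all tested genes. Their median log2 difference was -0.035, -0.069 and 0.064 in the 3 comparisons, beside -0.019, -0.0035 and -0.0088 over all tested genes. The samples of the clones did not overlap for 2 of 6 members between Rop7-III and Rop7-II, 4 of 6 between Rop7-III and Rop7-I, and 2 of 6 between Rop7-I and Rop7-II, while 40.7%, 38.2% and 35.0% of all tested genes did not overlap. The 3 comparisons share samples and are not independent of each other.

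Slc38a1, a carrier of glutamine and other small neutral amino acids, was the member called. Its TPM were 62.3, 64.5 and 63.6 in Rop7-III, 56.9, 57.0 and 57.5 in Rop7-I, and 48.5, 52.7 and 51.4 in Rop7-II. The 3 clones did not overlap, with Rop7-III highest and Rop7-II lowest. Rop7-III exceeded Rop7-II by 0.32 ± 0.04 (SE) on the log2 scale (adjusted p = 0.000466), a ratio of means of 1.25. The call was kept under all 18 alternative settings, with an adjusted p of at most 0.00457. Against Rop7-I the difference was 0.15 for Rop7-III (adjusted p = 0.0336), and Rop7-I exceeded Rop7-II by 0.17 (adjusted p = 0.0171), neither past the limit. Slc38a1 overlaps the RefSeq gene model Gm32457, which is not among the tabled genes, by 1796 bases.

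Slc38a2, its paralogue, was the most abundant of the 6 tested members and had its lowest levels in Rop7-III. The TPM were 171, 174 and 176 in Rop7-III, 187, 182 and 199 in Rop7-I, and 215, 183 and 207 in Rop7-II. The Rop7-III samples lay below all others, and Rop7-I and Rop7-II overlapped. The log2 difference between Rop7-III and Rop7-II was -0.21 ± 0.06 (SE), which did not pass the limit (adjusted p = 0.0266). Without Rop7-II replicate 2 it was -0.28 and was called (adjusted p = 0.00252), and without Rop7-II replicate 1 it was -0.16 (adjusted p = 0.0659).

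Slc38a1 and Slc38a2 lie 44.0 kb apart, both on the minus strand of chromosome 15 (chr15:96571418-96643438 and chr15:96687392-96699728). The ratio of Slc38a2 to Slc38a1 within a sample was 2.70 to 2.77 in Rop7-III, 3.19 to 3.46 in Rop7-I and 3.47 to 4.43 in Rop7-II. These ranges did not overlap. The ratio was highest, 4.43, in Rop7-II replicate 1, and the other Rop7-II samples were at 3.47 and 4.03.

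Slc1a5, the carrier that exchanges glutamine for other small neutral amino acids, was slightly higher in Rop7-I. Its TPM were 94.8, 99.2 and 96.2 in Rop7-I, 89.5, 87.8 and 91.3 in Rop7-II, and 89.3, 86.0 and 90.3 in Rop7-III. The Rop7-I samples lay above all others, which overlapped each other. No difference passed the limit: Rop7-III against Rop7-I was -0.13 (adjusted p = 0.0391), Rop7-I against Rop7-II was 0.11 (adjusted p = 0.0504), and Rop7-III against Rop7-II was -0.016 (adjusted p = 0.759), with a 95% interval from -0.09 to 0.06. Slc1a5 lies on chr7:16781334-16798274, plus strand.

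Slc3a2, the heavy chain that Slc7a5 and Slc7a6 need at the surface, had nearly equal levels in the clones. Its mean was 134 ± 0.622 TPM for Rop7-I, 133 ± 8.96 TPM for Rop7-II and 135 ± 5.30 TPM for Rop7-III (SD, n = 3), and the samples ranged from 126 to 143 TPM with overlap in every comparison. The log2 differences were 0.023, 0.0058 and 0.017, for Rop7-III against Rop7-II, Rop7-III against Rop7-I and Rop7-I against Rop7-II (adjusted p = 0.757, 0.953 and 0.845). Their 95% intervals ran from -0.09 to 0.13, from -0.10 to 0.11 and from -0.09 to 0.13. The gene lies on chr19:8706882-8723369, minus strand.

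Slc7a5, the LAT1 light chain for leucine and other large neutral amino acids, had 1 high sample. Its TPM were 29.5, 16.1 and 17.7 in Rop7-II, 16.5, 17.1 and 14.8 in Rop7-I, and 13.9, 18.4 and 15.8 in Rop7-III. The high value, 29.5 TPM, was that of Rop7-II replicate 1, the library with the highest B-cell and myeloid marker sums, and the part of those cells in it was not tested. The log2 difference between Rop7-III and Rop7-II was -0.34 (adjusted p = 0.241, 95% interval from -0.77 to 0.10), and it was -0.08 (adjusted p = 0.658) without that library. Rop7-I against Rop7-II went from -0.32 (adjusted p = 0.301) to -0.06 (adjusted p = 0.754) in the same way. The difference between Rop7-III and Rop7-I was -0.017 (adjusted p = 0.966), with a wide interval from -0.46 to 0.42. Slc7a5 lies on chr8:121881146-121907686, minus strand.

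Slc7a6 (y+LAT2), the light chain that exchanges cationic for neutral amino acids, was more abundant than Slc7a5 in Rop7-I and Rop7-III, where samples did not overlap between the genes. Its TPM were 31.7, 30.8 and 32.5 in Rop7-I, 29.4, 26.6 and 31.2 in Rop7-II, and 26.9, 27.2 and 29.7 in Rop7-III. The Rop7-III samples lay below those of Rop7-I, with a log2 difference of -0.18 that did not pass the limit (adjusted p = 0.109). The differences were -0.05 for Rop7-III against Rop7-II (adjusted p = 0.575) and 0.12 for Rop7-I against Rop7-II (adjusted p = 0.228). The gene lies on chr8:106168219-106198714, plus strand. The ratio of Slc3a2 to the sum of Slc7a5 and Slc7a6 was 2.99 to 3.17 in Rop7-III, 2.77 to 2.85 in Rop7-I and 2.43 to 2.96 in Rop7-II, lowest in Rop7-II replicate 1.

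**Figure D4:**
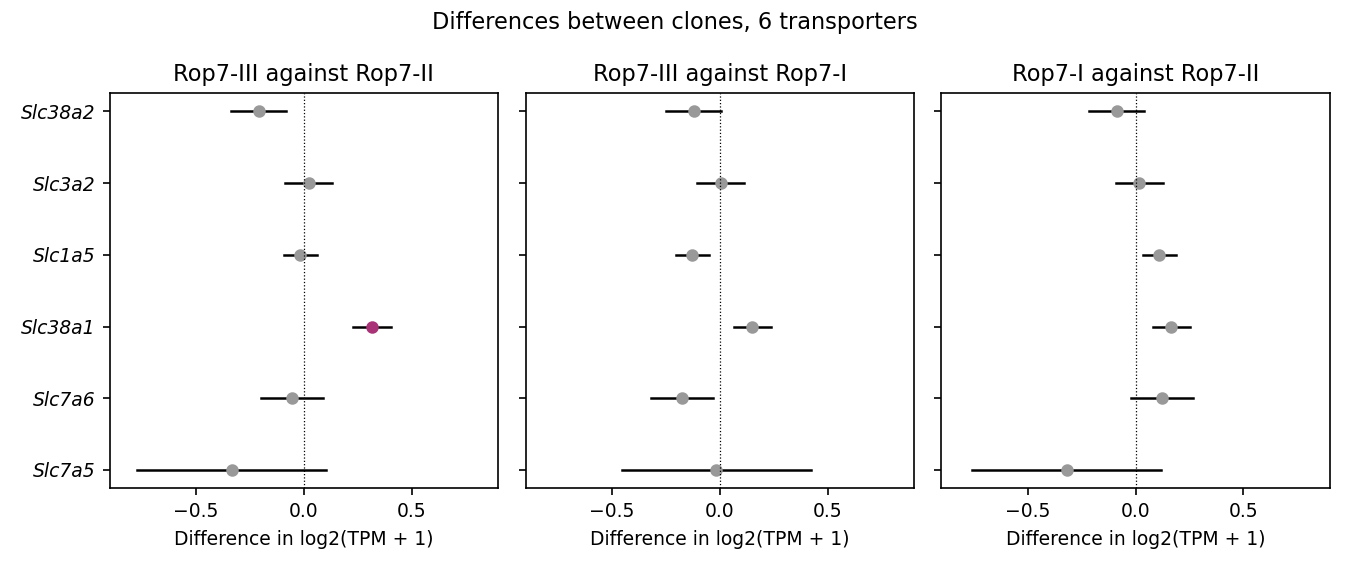
Difference in log2(TPM + 1) between clones for the 6 tested transporters, with 95% intervals from limma, in a panel for each comparison. The purple point, Slc38a1 in Rop7-III against Rop7-II (0.32), was called at an adjusted p under 0.01, grey points were not, and the wide intervals of Slc7a5 come with 1 high Rop7-II sample.

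Ordered by TPM, which is per length and so allows genes to be compared, the members below Slc6a19 kept the same order of means in all clones: Slc38a2, Slc3a2, Slc1a5, Slc38a1, Slc7a6, Slc7a5 and Slc43a1. Samples of neighbours in this order did not overlap, except for Slc7a6 and Slc7a5 in Rop7-II, where the sample of Slc7a5 at 29.5 TPM reached into the range of Slc7a6. Slc6a19 stood at the top of the order in Rop7-II, between Slc1a5 and Slc38a1 in Rop7-I, and beside Slc7a6 in Rop7-III, with overlapping samples there (24.3 to 32.6 against 26.9 to 29.7 TPM).

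Of the 45 listed cell-surface amino acid transporters, 11 were at 0 in every sample, 24, these included, did not exceed 1 TPM anywhere, with a highest value of 0.85 TPM, and 21 passed the filter. Without Slc6a19 and Slc43a1, 19 were tested. Slc38a1 was the single gene called in Rop7-III against Rop7-II (1 of 19, beside 12.3% of all tested genes), and 0 of 19 were called in the other comparisons (beside 4.85% and 7.53%). At an unadjusted p under 0.05, limma gave 5, 7 and 4 of 19 (beside 37.8%, 28.0% and 32.1%). The median log2 differences were -0.12, -0.05 and -0.06. Without Rop7-II replicate 1, in which Slc1a4 and Slc7a8 no longer passed the filter, the medians were -0.016, -0.05 and 0.0047 over 17 genes, with 1 gene called in Rop7-III against Rop7-II and 1 in Rop7-I against Rop7-II (Slc38a6).

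Besides the members, 4 genes of the list had a mean of at least 10 TPM: Slc43a2, Slc6a6, Slc7a1 and Slc38a6. Slc6a6, the taurine transporter, was at 56.7 ± 3.66 TPM for Rop7-I, 59.5 ± 2.53 TPM for Rop7-II and 53.9 ± 1.63 TPM for Rop7-III. Slc7a1 (CAT1), a carrier of arginine and lysine, was at 21.1 ± 1.03, 22.1 ± 1.89 and 17.6 ± 1.03 TPM in the same order. Its log2 difference between Rop7-III and Rop7-II, -0.31, did not pass the limit (adjusted p = 0.0149) but was called without Rop7-II replicate 2 (-0.37, adjusted p = 0.00811). Slc38a6 was at 15.6 ± 0.217 TPM for Rop7-I, 20.5 ± 2.20 TPM for Rop7-II and 18.8 ± 1.60 TPM for Rop7-III. Between Rop7-I and Rop7-II its log2 difference was -0.37 (adjusted p = 0.0170), and it was called without Rop7-II replicate 1 (-0.46, adjusted p = 0.00381).

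The genes that sense amino acids for mTORC1 or carry them between organelles are read, like the lists after them, beside 12.3%, 4.85% and 7.53% of all tested genes called in the 3 comparisons, and 37.8%, 28.0% and 32.1% at an unadjusted p under 0.05. Of 37 tested genes of mTORC1 sensing, 1 was called in Rop7-III against Rop7-II, 0 in Rop7-III against Rop7-I and 2 in Rop7-I against Rop7-II, with 8, 4 and 5 at an unadjusted p under 0.05. Rptor, the subunit that binds the substrates of mTORC1, was at 34.2 TPM for Rop7-III, 28.1 TPM for Rop7-I and 23.0 TPM for Rop7-II. It was higher in Rop7-III relative to Rop7-II by 0.55 on the log2 scale (adjusted p = 0.000117), under all 18 alternative settings, and higher in Rop7-I relative to Rop7-II by 0.28 (adjusted p = 0.00702), which was lost in 11 of 18. Nprl2, a subunit of the GATOR1 complex that restrains mTORC1, had a log2 difference of -0.30 in Rop7-I against Rop7-II (adjusted p = 0.00605), a call that was lost in 11 of 18. Of 18 organelle carriers 1 was called, Slc25a38, the mitochondrial glycine carrier, in Rop7-I against Rop7-II (-0.29, adjusted p = 0.00514, lost in 7 of 18), and 6, 2 and 7 had an unadjusted p under 0.05 in the 3 comparisons. Median log2 differences of the mTORC1 list were -0.012, -0.010 and 0.0014, and those of the organelle carriers -0.06, -0.04 and 0.015. Without Rop7-II replicate 1, the mTORC1 list had no call in Rop7-I against Rop7-II, and its medians in the comparisons with Rop7-II were 0.0088 and 0.020, while those of the organelle carriers were -0.03 and 0.024.

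Genes of the ATF4 response to amino acid shortage were called in both directions in the comparisons with Rop7-II. In each comparison, 15 of the tested genes had a negative log2 difference and 6 a positive one. Of 21 tested, Rop7-III had 1 called as higher and 2 as lower against Rop7-II, where 6.39% of all tested genes were called as higher and 5.89% as lower. Against Rop7-I it had 1 higher and 0 lower (beside 2.58% and 2.28%), and Rop7-I against Rop7-II had 1 higher and 1 lower (beside 3.67% and 3.85%). At an unadjusted p under 0.05 the counts were 12, 4 and 7. Trib3, a pseudokinase induced by ATF4, was higher in Rop7-III relative to Rop7-II by 0.61 (adjusted p = 0.00316) and than in Rop7-I by 0.55 (adjusted p = 0.00979). Cars, the cysteinyl-tRNA synthetase, had a log2 difference of -1.03 in Rop7-III against Rop7-II (adjusted p = 0.00155) and of -0.77 in Rop7-I against Rop7-II (adjusted p = 0.00929). Ddit4, an inhibitor of mTORC1 signalling, had -0.76 in Rop7-III against Rop7-II (adjusted p = 0.00367). Stc2, a secreted glycoprotein, was at 1.77 TPM on average for Rop7-I and 0.157 TPM in Rop7-II, a log2 difference of 1.24 (adjusted p = 0.00712).

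In Rop7-III against Rop7-II, the Cars call was lost in 1 of 18 alternative settings and those of Trib3 and Ddit4 in 3 each. In the other comparisons Trib3 was lost in 10 of 18, Cars in 12 of 18 and Stc2 in 9 of 17. The median log2 difference of the list was -0.17, -0.04 and -0.12 in the 3 comparisons, and -0.06, -0.06 and 0.0079 without Rop7-II replicate 1. Without that library, over 20 tested genes, Rop7-III had 2 genes higher and 2 lower against Rop7-II, and 1 higher and 1 lower against Rop7-I, while Rop7-I against Rop7-II had 2 higher and 1 lower.

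Among 17 tested genes of glutamine and branched-chain amino acid use, Glul, the enzyme that makes glutamine from glutamate, was higher in Rop7-III. Its mean was 172 TPM for Rop7-III, 134 TPM for Rop7-I and 129 TPM for Rop7-II, and Rop7-III exceeded Rop7-II by 0.41 (adjusted p = 0.00112), under all 18 alternatives, and Rop7-I by 0.35 (adjusted p = 0.00499, lost in 7 of 18). Glud1, which turns glutamate into a Krebs cycle intermediate, was higher in Rop7-III relative to Rop7-I by 0.20 (adjusted p = 0.00680, lost in 9 of 18). Bckdhb, a subunit of the branched-chain ketoacid dehydrogenase, had a log2 difference of -0.60 in Rop7-I against Rop7-II (adjusted p = 0.00646, lost in 12 of 18). No other gene of the list was called, 5, 4 and 8 had an unadjusted p under 0.05, and the medians were 0.033, 0.021 and -0.016. Without Rop7-II replicate 1, Got1, an aspartate aminotransferase, was also called as higher in Rop7-III (0.38, adjusted p = 0.00182) and in Rop7-I (0.35, adjusted p = 0.00405) relative to Rop7-II, and Bckdhb was not called.

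Of 11 genes of growth and activation, with which amino acid transporters often rise in T cells, 3 were called in Rop7-III against Rop7-II, 2 in Rop7-III against Rop7-I and 1 in Rop7-I against Rop7-II. Of all tested genes, 12.3%, 4.85% and 7.53% were called. The counts for Rop7-III include Mki67. Mki67, a marker of dividing cells that also stands in the study's list, so that its test is not independent evidence, was higher in Rop7-III by 1.96 than in Rop7-II (adjusted p = 0.000191) and by 1.69 than in Rop7-I (adjusted p = 0.000988), under all 18 alternatives, at mean levels of 8.52, 1.42 and 1.96 TPM in Rop7-III, Rop7-II and Rop7-I. Tfrc, the transferrin receptor, was higher in Rop7-III by 0.35 (adjusted p = 0.00352) and 0.36 (adjusted p = 0.00637), and the glucose transporter Slc2a1 had -0.27 in Rop7-III against Rop7-II (adjusted p = 0.00292). Myc was higher in Rop7-I relative to Rop7-II by 0.48 (adjusted p = 0.00465). These Tfrc, Slc2a1 and Myc calls were lost in 4 to 9 of 18 alternatives. At an unadjusted p under 0.05 there were 7, 5 and 3 genes, and the medians were 0.13, -0.07 and 0.14. Without Rop7-II replicate 1 the medians were 0.40 in Rop7-III against Rop7-II and 0.37 in Rop7-I against Rop7-II, and Hif1a, a transcription factor of the hypoxia response, was also called in Rop7-III against Rop7-II (0.18, adjusted p = 0.00994).

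**Figure D5:**
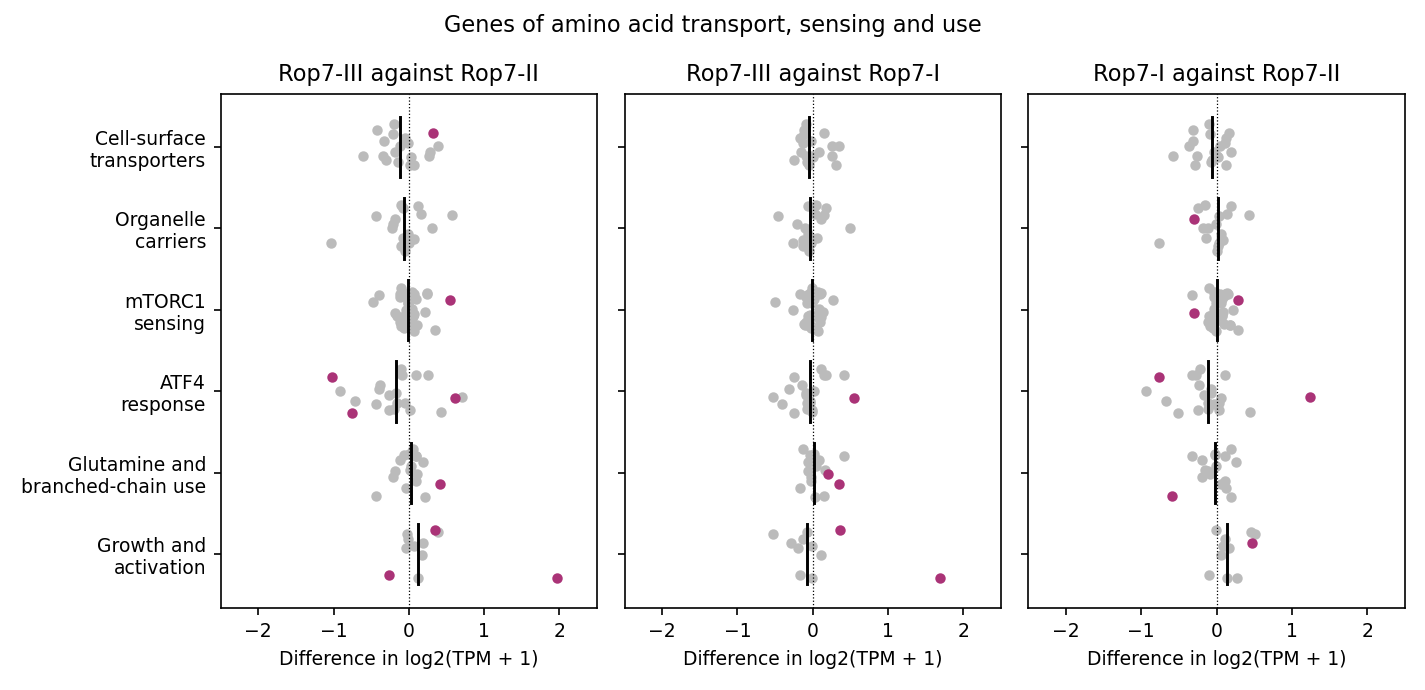
Difference in log2(TPM + 1) between clones for the tested genes of 6 lists around amino acid transport, sensing and use, with a point for each gene, purple where called at an adjusted p under 0.01, and a black line at the median of the list; the vertical spread within a row has no meaning. Most points lay close to 0, and among cell-surface transporters, shown without Slc6a19 and Slc43a1, 1 gene was called.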

How the data were processed

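Sequencing reads were single-end and not strand-specific. Per the labels and the study's methods, the authors aligned the reads and quantified RefSeq genes of mouse build mm10 with RSEM 1.2.11, and deposited TPM, corrected for gene length and with 1000000 to 1000001 as the sum of each sample. The authors compared counts with DESeq2 1.8.1; only the deposited TPM were used here, which do not give the depth of a sample, and levels are shares of the RNA of a sample. Between 11056 and 11494 genes exceeded 1 TPM in a sample.

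Groups followed the labels. As by the authors, genes that reached no more than 1 TPM were not tested. The remaining 12115 were fitted as log2(TPM + 1) with limma 3.58.1 in R 4.3.3, with all 9 samples, a spread that followed mean expression and no block. Benjamini-Hochberg adjustment ran over all tested genes of a pair of clones. The p-values weigh a difference against the spread among samples of the same clone, taken over all clones. Each clone was a single line, so the p-values carry no spread between lines. Differences in log2(TPM + 1) understate those of low genes. The fit was tested on simulated data. Members and lists were chosen with earlier results of these data known. Of the lists other than cell type markers, genes called in at least 1 pair were named (up to 5 with the smallest adjusted p). Also named were transporters of at least 10 TPM on average, the neighbours of Slc6a19 and Slc43a1, and the 5 genes most like each. Cell type markers were given as counts, sums and ranges, so not every called marker was named. Genes named elsewhere (single markers, other called neighbours, overlaps, and the list genes called when a sample was left out) were chosen after their values were seen.

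Alternatives were 0.1 or 0.5 TPM added, no filter or at least 1 TPM in every sample, a common median, quantile normalization, no trend, a fit of 2 clones at a time, a block for the replicate number, omission of each sample, and an adjusted p under 0.05. Positions are from RefSeq and GENCODE M21 on GRCm38.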

Additional observations from a re-analysis of the deposited data

How the results depend on the processing

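Each difference of the 6 tested members was recomputed in 3 comparisons under 18 alternatives, 324 values in all. Of these, 313 kept their direction and their side of the limit, 10 changed sign, and 1 passed the limit (Slc38a2 in Rop7-III against Rop7-II, -0.28, without Rop7-II replicate 2). All sign changes came from leaving out 1 sample, in differences close to 0, whose cause was not tested. Over the samples left out in turn, Slc3a2 ran from -0.013 to 0.077 in Rop7-III against Rop7-II, from -0.019 to 0.037 in Rop7-III against Rop7-I and from -0.019 to 0.071 in Rop7-I against Rop7-II, Slc1a5 from -0.030 to 0.0048 in Rop7-III against Rop7-II, and Slc7a5 from -0.11 to 0.077 in Rop7-III against Rop7-I. The number of called cell-surface transporters, 1, 0 and 0 in the order Rop7-III against Rop7-II, Rop7-III against Rop7-I and Rop7-I against Rop7-II, was 3, 3 and 3 at an adjusted p under 0.05, and ranged from 1 to 3, 0 to 0 and 0 to 1 with a sample left out. The 3 genes without Rop7-II replicate 2 were Slc38a1, Slc38a2 and Slc7a1. The difference of Slc6a19 between Rop7-III and Rop7-II, -3.67, ranged from -3.75 to -3.54 with a sample left out. Over all genes, 1488, 588 and 912 were called; these counts were 839, 773 and 356 with only the 2 clones compared in the fit, 1175, 407 and 600 without the trend, and 834 to 1315, 258 to 830 and 416 to 875 with a sample left out. With the replicate number as a block they were 1105, 373 and 613, and the called cell-surface transporters were again 1, 0 and 0. The numbers did not pair the samples: deviations from the clone means had r from -0.39 to 0.11 between samples of the same number, and 1 of 9 samples resembled its own number most. The TPM carry no depth, so no counting interval could be given, and differences of low genes such as Slc43a1 depend on the value added before the logarithm.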

Other observations

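The tested genes whose pattern over the 9 samples was most like that of Slc6a19 were found by the root mean square difference of log2(TPM + 1), each gene centred on its own mean. Slc6a19 itself deviated from its mean by a root mean square of 1.52. The closest 5 genes were Pdk1 (0.639), Crip1 (0.640), Pcsk1 (0.702), Abhd14b (0.725) and Notch3 (0.731). Like Slc6a19, all 5 stand in the study's own list of genes that differ between clones. Pdk1, a kinase that restrains the entry of pyruvate into mitochondria, was at 239 ± 14.6 TPM for Rop7-II, 38.0 ± 0.957 TPM for Rop7-I and 41.0 ± 1.18 TPM for Rop7-III. Pdk1 thus lacked the step between Rop7-I and Rop7-III that Slc6a19 had. Crip1, at 65.7 ± 7.41 and 67.2 ± 1.80 TPM in Rop7-I and Rop7-III, had no such step beyond its spread. Neither did Abhd14b, at 0.557 ± 0.131 and 0.477 ± 0.327 TPM. In Rop7-II, Crip1 was at 531 ± 189 TPM, a wide spread, and Abhd14b at 21.2 ± 2.84 TPM. Pcsk1, a prohormone convertase, followed the order of means of Slc6a19, with 19.4 ± 3.47, 8.66 ± 2.68 and 2.92 ± 0.380 TPM in Rop7-II, Rop7-I and Rop7-III. Notch3, a receptor of the Notch family, also did, with 7.50 ± 0.940, 2.34 ± 0.396 and 1.12 ± 0.180 TPM. Abhd14b overlaps the tabled gene Abhd14a by 3467 bases in RefSeq, so that reads of the pair may have been divided between them.

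For Slc43a1, with a root mean square deviation of 0.959 from its own mean, the closest 5 genes were Ubash3b (0.234), Itga9 (0.244), Ptger2 (0.255), Ptgfrn (0.275) and Cd163l1 (0.326). Ubash3b, a phosphatase that dampens TCR signalling, was at 30.7 ± 1.70 TPM for Rop7-III, 12.0 ± 0.644 TPM for Rop7-I and 5.78 ± 1.69 TPM for Rop7-II. Itga9, an integrin chain, was at 12.7 ± 1.91, 4.20 ± 1.18 and 2.59 ± 0.436 TPM, and Ptger2, a receptor for prostaglandin E2, at 6.07 ± 0.745, 2.03 ± 0.600 and 0.337 ± 0.229 TPM in the same order. These genes were picked for their likeness, and their values are a description. Beside Slc43a1, 13 tested genes lay within 1 Mb, of which 2 were called in Rop7-III against Rop7-II, 0 in Rop7-III against Rop7-I and 2 in Rop7-I against Rop7-II. Of all tested genes, 12.3%, 4.85% and 7.53% were called. The 2 genes called in Rop7-III against Rop7-II (Gm13710 and Tmx2) were lower in Rop7-III, unlike Slc43a1. In Rop7-I against Rop7-II, 1 was higher and 1 lower. Its closest tabled neighbours were Timm10, at 16.2 ± 2.56 TPM for Rop7-III, 15.5 ± 0.488 TPM for Rop7-I and 11.9 ± 2.71 TPM for Rop7-II, and Rtn4rl2, listed at 0 in all samples.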
